A study of Mus musculus with 6 samples.

Results

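The Hox genes of the Hoxa, Hoxb, Hoxc and Hoxd clusters were examined for open chromatin in blood monocytes. They were taken as every protein-coding gene of the GRCm38 gene table whose symbol is Hoxa, Hoxb, Hoxc or Hoxd followed by a number alone, which gave 39 of 21887 protein-coding genes. The Hoxa cluster on chromosome 6 has 11 of them, Hoxb on chromosome 11 has 10, Hoxc on chromosome 15 has 9 and Hoxd on chromosome 2 has 9. The data were 6 ATAC-seq libraries, in which the transposase Tn5 inserts sequencing adapters into accessible DNA, each with its own deposited list of broad peaks. Thrombocytopenic mice with the genotype PF4cre-iDTR gave the monocytes of 3 libraries, called DTR, and mice with the genotype WT gave those of 3 control libraries, called WT. Both groups had received diphtheria toxin (spelt Diptheria Toxin in the labels). In the PF4cre-iDTR genotype, Pf4 (a chemokine gene of platelets) lends its promoter to the Cre recombinase, which switches on the toxin receptor, so the intended targets are megakaryocytes and platelets. The labels give neither sex, age nor pooling of animals, nor do they say that the libraries came from separate animals, so the tests measure only the spread between these libraries, which may be technical.

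Hox proteins are homeodomain transcription factors that set regional identity along the body axis. The genes of a cluster lie in the order in which they are used from head to tail, so low numbers are anterior and high numbers posterior, and genes with the same number in different clusters are paralogues. In blood, several Hoxa and Hoxb genes are active in stem and progenitor cells and are turned down as cells mature. Polycomb complexes keep Hox genes silent, the methyltransferase MLL (Kmt2a) keeps them active, and PBX, MEIS and PREP proteins of the TALE family bind DNA together with Hox proteins.

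The window of a gene was its body with 1 kb added at each end. The measure was the percent of that window covered by peaks. Lists held from 77867 to 84029 peaks and covered from 43.8 to 50.1 Mb. The 3 DTR lists covered 49.4 ± 1.14 Mb (SD) and the 3 WT lists 46.0 ± 1.95 Mb, a ratio of 1.08, with no overlap between the groups. No read counts were used, so the depth behind a peak is unknown. The monocyte label was checked on 12 marker genes, among them Csf1r, Ly6c2 and Ccr2, and all 12 had a peak in every library. Markers of other blood cells had one too, in 6 of 6 B cell genes, 6 of 9 genes of T and NK cells, 6 of 7 of megakaryocytes and platelets, 5 of 8 of neutrophils and 7 of 8 of stem and progenitor cells. Among the markers with no peak in any library were Cd8a, Ncr1, Ppbp and Retnlg.

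Open chromatin was found at most Hox genes in both groups. Of the 39 genes, 27 (69.2%) had a peak in all 6 libraries, against 15041 of 21887 protein-coding genes (68.7%). By cluster, 10 of 11 Hoxa genes, 8 of 10 Hoxb genes, 6 of 9 Hoxd genes and 3 of 9 Hoxc genes had a peak in every library. At Hoxa4, Hoxa6 and Hoxa11 no peak of any library reached the gene body, so these genes count through the added 1 kb. Hoxa2, Hoxb13, Hoxc11, Hoxc12, Hoxc13, Hoxd1, Hoxd4 and Hoxd12 had none in any library. Hoxb9, Hoxc4, Hoxc5 and Hoxc8 had a peak in some libraries. By position, 6 of 8 anterior genes (numbers 1 to 3), 11 of 15 central genes (4 to 8) and 10 of 16 posterior genes (9 to 13) had a peak in all libraries. Paralogue groups 3, 6, 7 and 10 had a peak in every member and every library, while neither member of group 12 had any.

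**Figure D1:**
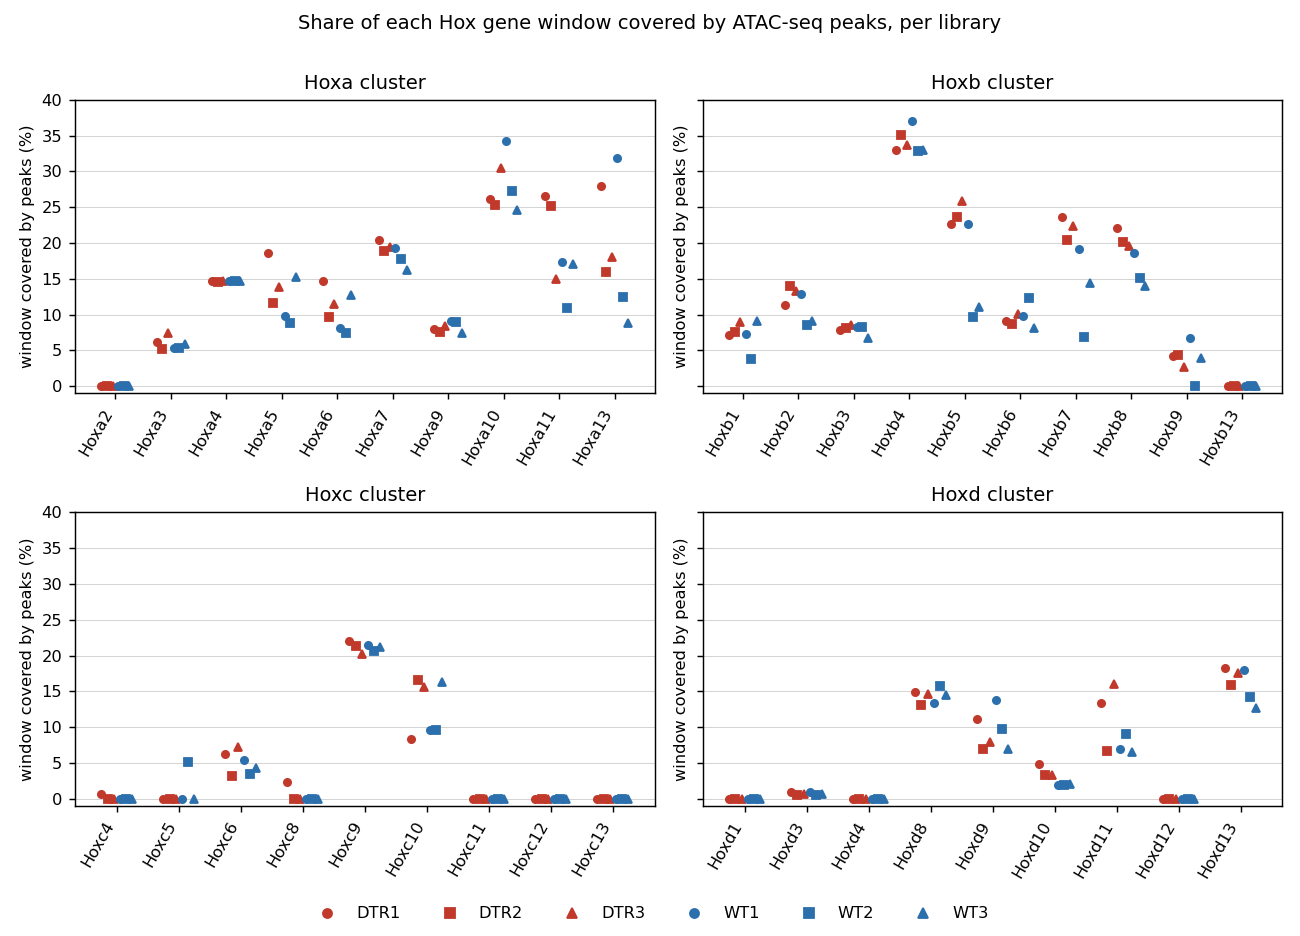
Percent of each Hox window covered by peaks (y axis) for the genes of each cluster that are reported here, in paralogue order (x axis), with 1 symbol per library. Hoxb4 and Hoxa10 have the highest means, 34.1% and 28.0%, and the 8 genes with no peak lie at 0 in all libraries.

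The stretches without a peak were long. From the Hoxc13 window to a point short of Hoxc10, 43.4 kb held no peak in any library, and that stretch contains the windows of Hoxc13, Hoxc12 and Hoxc11. In the Hoxd cluster, 49.9 kb without a peak contain the windows of Hoxd4 and Hoxd1. The corresponding longest stretches were 31.4 kb in Hoxa, which contains the Hoxa2 window, and 28.7 kb in Hoxb, which contains no whole window. The Hoxa3, Hoxb3 and Hoxd3 gene models are long and run over the neighbouring genes, so peaks at Hoxa4, Hoxa5, Hoxa6 or Hoxb4 can also lie in their windows, and members are not independent of each other. When overlapping peaks of the 6 lists were merged, the windows held 49 regions, of which 10 lay in more than 1 window.

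**Figure D2:**
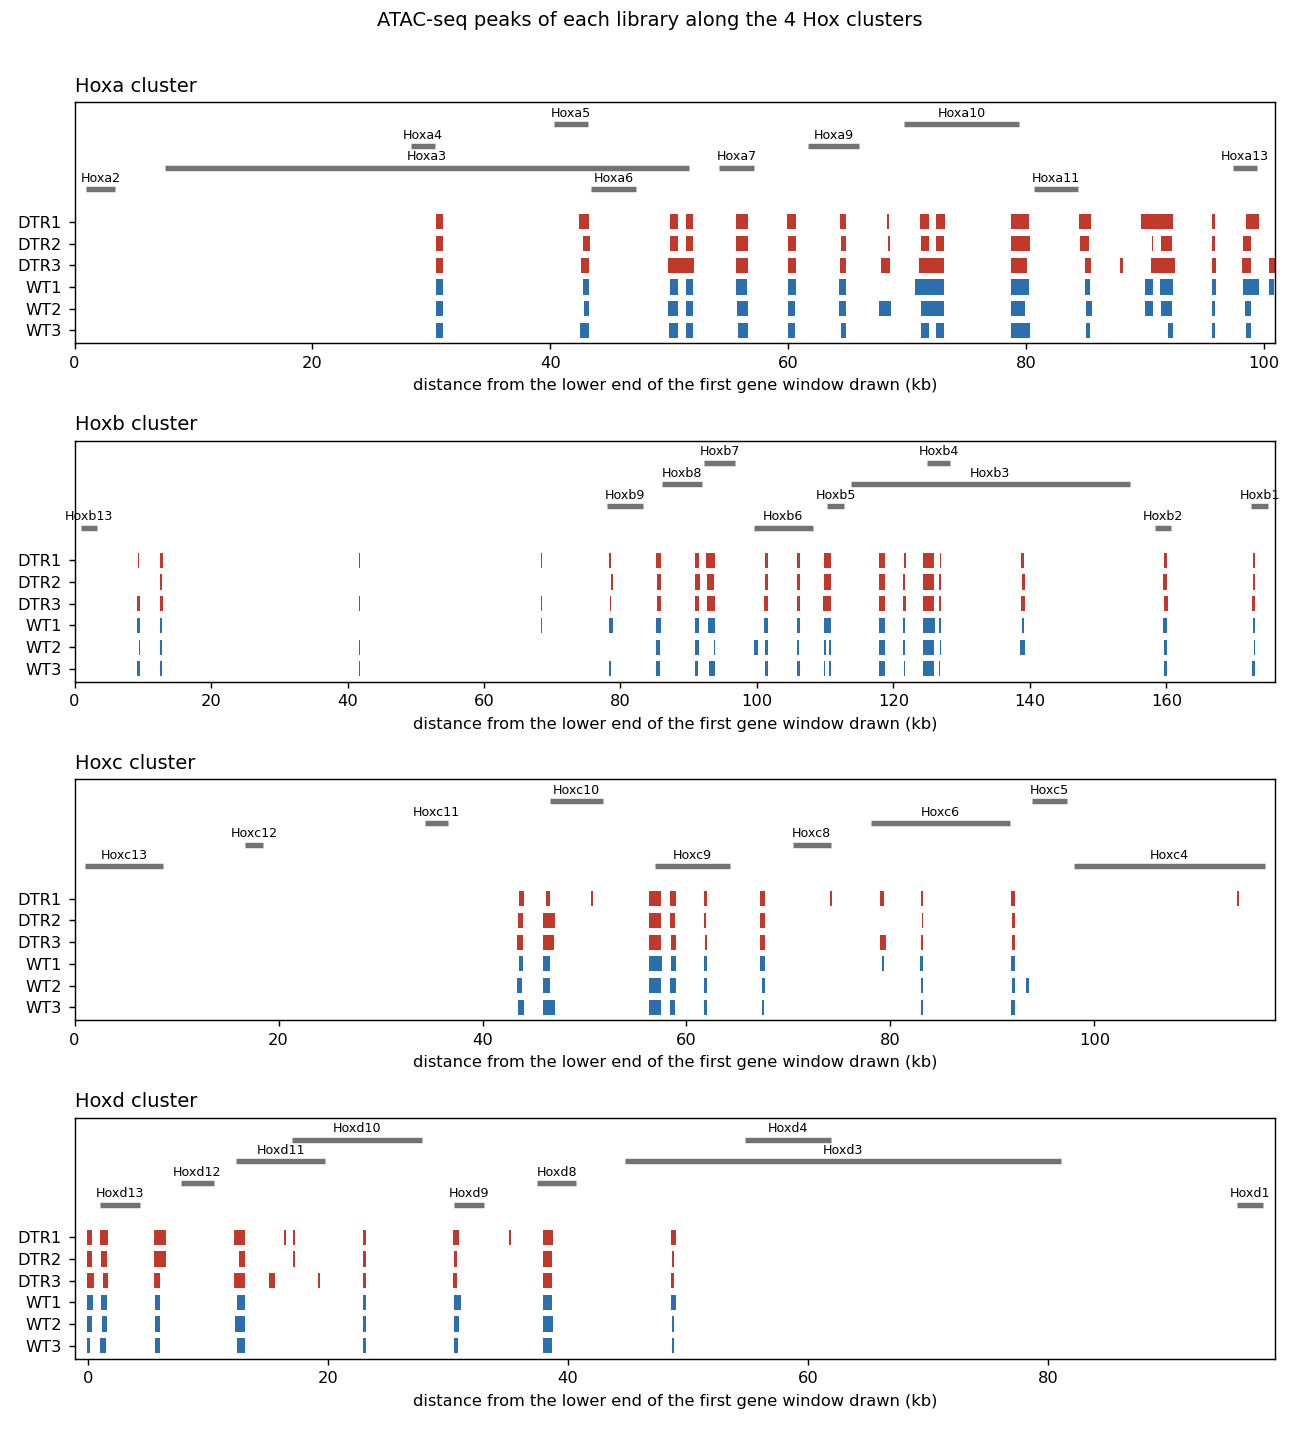
Peaks of each library (coloured bars, 1 row per library) and Hox gene bodies (grey bars) against the distance in kb from the lower end of the first window drawn for each cluster. Peaks fall at nearly the same places in the 6 libraries, and the 43.4 kb of the Hoxc13 end and the 49.9 kb of the Hoxd1 end hold none.

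In the Hoxa cluster, Hoxa10, a posterior gene used in myeloid progenitors, had the most cover. Its window was covered at 26.2%, 25.2% and 30.5% in DTR1, DTR2 and DTR3 and at 34.2%, 27.2% and 24.6% in WT1, WT2 and WT3, so the groups overlapped. Hoxa13, known for its part in distal limb and urogenital development, was the most variable. Its window was covered at 27.9%, 16.0% and 18.1% in the DTR libraries and at 31.9%, 12.5% and 8.79% in the WT libraries, with DTR1 and WT1 both high. At both genes the values of the groups were interleaved.

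Hoxa9, a factor of stem and progenitor cells that is active with Meis1 in myeloid leukaemia, had a mean cover of 8.24%. The median was 9.40% over the 39 Hox genes and 3.77% over all protein-coding genes. Hoxa9 was covered at 8.02%, 7.51% and 8.38% in DTR and at 9.09%, 8.99% and 7.43% in WT, by a single peak in each library. Hoxa4 gave the most even values of the cluster, at 14.7%, 14.5% and 14.7% in DTR and 14.7%, 14.6% and 14.6% in WT. Its cover came from a single region, chr6:52191828-52192420 (593 bp, coordinates of the deposited lists), which lies in the Hoxa3 body and within 1 kb of Hoxa4. This region had the highest fold enrichment of all regions in Hox windows, with authors' folds of 11.9, 11.4 and 11.8 in the DTR lists and 12.2, 11.5 and 10.6 in the WT lists. Within the lists it stood between the percentiles 94.6 and 98.9 of all peaks by fold. The 37 regions of Hox windows found in all libraries had a median mean fold of 4.26, against 5.80 over the 68681 such regions of the whole lists.

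In the Hoxb cluster, Hoxb4, which promotes the growth of blood stem cells when raised, had the most cover of all 39 genes. It was covered at 33.0%, 35.1% and 33.7% in DTR and at 37.0%, 32.9% and 33.0% in WT. Most of this was the region chr11:96317667-96319416 (1750 bp), which held from 1550 to 1740 bp of peak in each library and reached over the Hoxb4 promoter. Hoxb5 split the libraries differently, at 22.6%, 23.7% and 25.9% in DTR, 22.6% in WT1, and 9.65% and 11.04% in WT2 and WT3. WT1 therefore lay with the DTR libraries and the other WT libraries apart. Hoxb8, which holds myeloid progenitors in an undifferentiated state when kept on, was covered at 22.1%, 20.2% and 19.6% in DTR and at 18.6%, 15.1% and 13.99% in WT. Its groups did not overlap.

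In the Hoxc cluster the cover was concentrated in the middle. Hoxc9 was covered at 22.0%, 21.3% and 20.2% in DTR and at 21.5%, 20.7% and 21.1% in WT, a spread of under 2 percentage points. Hoxc10 ranged more widely, at 8.31%, 16.5% and 15.7% in DTR and 9.62%, 9.66% and 16.3% in WT, with low and high libraries in both groups. Hoxc6 was low throughout, at 6.20%, 3.20% and 7.22% in DTR and 5.38%, 3.40% and 4.23% in WT. Peaks at the other genes of the cluster were rare and short: a peak of 141 bp at Hoxc4 and another of 137 bp at Hoxc8 in DTR1 alone, and a peak of 277 bp at Hoxc5 in WT2 alone.

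In the Hoxd cluster, Hoxd13, the most posterior gene and a limb and urogenital regulator, had the highest mean. It was covered at 18.3%, 16.0% and 17.6% in DTR and at 18.03%, 14.2% and 12.7% in WT. Hoxd8 was covered at 14.9%, 13.1% and 14.6% in DTR and at 13.3%, 15.7% and 14.5% in WT. Both genes overlapped between the groups. Hoxd11 was high in DTR1 and DTR3, at 13.4% and 16.0%, and lower in DTR2 at 6.63%, against 6.92%, 9.07% and 6.46% in WT. Hoxd3, despite a window of 38279 bp, had a single peak of 190 to 372 bp in each library. Hoxb9, the remaining gene with peaks in some libraries, had 310, 321 and 199 bp covered in DTR, 490 bp in WT1, none in WT2 and 285 bp in WT3.

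The peaks at Hox genes often lay beside the promoter rather than over it. RefSeq promoters (GRCm38.p6, 250 bases before to 50 after a start) were listed for 22 of the 39 genes, 24 promoters in all. A peak in all 6 libraries touched a promoter of 5 of these 22 genes (22.7%), namely Hoxa3, Hoxa5, Hoxa10, Hoxb4 and Hoxd9, against 9764 of 17492 protein-coding genes with a listed promoter (55.8%). Within 1 kb of a start the shares were closer, at 12 of 22 Hox genes (54.5%) and 59.5% of the protein-coding genes. At Hoxa7, Hoxd8 and Hoxa9 the nearest region shared by all libraries began 524, 539 and 1062 bp downstream of the start. At Hoxd10 it lay 1503 bp upstream, and at Hoxd1 it was 46781 bp away. These shares are descriptions with no test, and the 17 genes with no listed promoter are not in them.

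The promoter bases before the start are shown for the member of Hoxb, Hoxa and Hoxd that had the most cover among those with a peak over the promoter in every library, and for Hoxd1 and Hoxa2, which had no peak. Hoxa10 is shown by its covered promoter, while its other listed promoter, chr6:52234890-52235189, had no peak in any library. Capitals mark CG dinucleotides, the sites at which DNA can be methylated, and each sequence runs 5′ to 3′ on the strand of the gene.
Hoxb4 promoter, chr11:96318017-96318266, + strand, peak over it in all libraries: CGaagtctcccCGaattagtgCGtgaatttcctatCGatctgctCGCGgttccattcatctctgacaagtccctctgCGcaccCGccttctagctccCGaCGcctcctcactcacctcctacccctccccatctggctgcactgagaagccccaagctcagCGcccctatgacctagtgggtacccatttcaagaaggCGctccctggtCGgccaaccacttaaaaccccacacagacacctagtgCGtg
Hoxa10 promoter, chr6:52240855-52241104, - strand, peak over it in all libraries: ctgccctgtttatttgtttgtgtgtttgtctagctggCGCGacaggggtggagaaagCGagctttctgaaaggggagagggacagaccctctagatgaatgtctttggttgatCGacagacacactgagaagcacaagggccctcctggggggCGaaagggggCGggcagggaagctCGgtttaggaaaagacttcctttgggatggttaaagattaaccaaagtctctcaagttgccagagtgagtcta
Hoxd9 promoter, chr2:74697513-74697762, + strand, peak over part of it in all libraries: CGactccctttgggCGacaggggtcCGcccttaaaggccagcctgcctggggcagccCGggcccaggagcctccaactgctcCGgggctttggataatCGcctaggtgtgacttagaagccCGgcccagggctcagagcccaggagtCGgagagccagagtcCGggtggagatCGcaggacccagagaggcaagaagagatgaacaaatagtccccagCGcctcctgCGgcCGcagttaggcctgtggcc
Hoxd1 promoter, chr2:74762730-74762979, + strand, no peak: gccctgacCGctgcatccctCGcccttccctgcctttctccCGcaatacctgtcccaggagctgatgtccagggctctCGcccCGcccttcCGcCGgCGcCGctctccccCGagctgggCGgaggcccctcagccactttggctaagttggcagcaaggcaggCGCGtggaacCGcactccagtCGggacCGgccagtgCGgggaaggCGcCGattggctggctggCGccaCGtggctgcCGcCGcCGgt
Hoxa2 promoter, chr6:52164832-52165081, - strand, no peak: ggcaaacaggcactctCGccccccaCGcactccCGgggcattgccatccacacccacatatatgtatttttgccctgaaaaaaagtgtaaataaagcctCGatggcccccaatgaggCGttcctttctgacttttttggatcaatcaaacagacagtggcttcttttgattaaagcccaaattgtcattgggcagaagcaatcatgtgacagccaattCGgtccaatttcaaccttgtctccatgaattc
The 24 Hox promoters, taken over all 300 bases, had a median of 14.5 CG dinucleotides, against 7 over 32851 promoters of all genes. The 5 with a peak in every library had a median of 20 and the other 19 a median of 13, while Hoxd1 without a peak had 29. The unpeaked Hoxd1 promoter thus had more CG than the median of the 5 with a peak. The 4 short motifs were searched on both strands, and no matches of different motifs overlapped in Hox promoters. The HOX-PBX motif TGATTNAT was in 2 of 24 Hox promoters (3.22% of all promoters) and the MEIS motif TGACAG in 2 of 24 (19.2%). The core of the CTCF motif, CAGGNGGC, was in 4 of 24 (9.71%), and the motif of the myeloid factor PU.1, GAGGAAGT, in 1 of 24 (3.20%). Hoxa2 held a match of both the HOX-PBX and the MEIS motif, and the Hoxa10 and Hoxd9 promoters held the CTCF core, which for Hoxa10 lay in the bases after the start that are not shown.

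Windows of 14 listed RNA genes inside the clusters, again with 1 kb added at each end, were read in the same way. Of these, 7 had a peak in all libraries, 1 in some and 6 in none. Hotair and Hoxaas2 had no peak. The microRNA genes are shown because copies with the same seed sat in covered and uncovered parts of the clusters. Capitals mark the seed, bases 2 to 8 (RefSeq, GRCm38.p6).
miR-10a-5p: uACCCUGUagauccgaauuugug
miR-10b-5p: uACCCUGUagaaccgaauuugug
miR-196a-5p: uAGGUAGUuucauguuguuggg
miR-196b-5p: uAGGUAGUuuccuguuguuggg
The 2 miR-10 RNAs share a seed, as do the miR-196 RNAs. The Mir10a window, beside Hoxb4, had 580, 608 and 593 bp covered in DTR and 598, 594 and 579 bp in WT. The Mir10b window, beside Hoxd4, had none. The Mir10a cover was part of the region chr11:96317667-96319416 over the Hoxb4 promoter. That region did not reach the miR-10a bases at chr11:96317186-96317208. The Mir196b window, between Hoxa9 and Hoxa10, had 164, 198 and 803 bp in DTR, none in WT1 and WT3, and 971 bp in WT2. Those of Mir196a-1 in the Hoxb cluster and Mir196a-2 in the Hoxc cluster had none. The Mir196b cover came from the region chr6:52229071-52230051, with authors' folds from 1.90 to 2.13. It did not reach the miR-196b bases at chr6:52230129-52230150. Hoxa11os, an RNA gene antisense to Hoxa11, had 1022, 784 and 750 bp in DTR and 385, 515 and 339 bp in WT, without overlap. Of the DTR3 length, 254 bp were a peak found in that library alone. In the region shared by all libraries, chr6:52245899-52246981, DTR3 had 496 bp and WT2 515 bp, so the groups overlapped there. Hoxa11os was not in the fit over protein-coding genes.

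In the comparison of DTR with WT, no Hox gene was called as changed in covered share with these windows. With 3 libraries in each group, this does not show that the shares were equal. A linear model with empirical Bayes moderation (limma) was fitted to the covered percent of all 15754 protein-coding genes with a peak in at least 1 library, with Benjamini-Hochberg adjustment and a threshold of 0.05. Of the 31 Hox genes in this fit, 0 were called higher and 0 lower. Over all genes, 26 were called higher in DTR (0.165%) and 5 lower (0.0317%). The lowest adjusted p from limma among Hox genes was 0.322, for Hoxd10. At an unadjusted p under 0.05 there were 4 of 31 Hox genes (Hoxd10, Hoxb8, Hoxb7 and Hoxb5), all with the higher mean in DTR, against 10.5% of all genes.

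**Figure D3:**
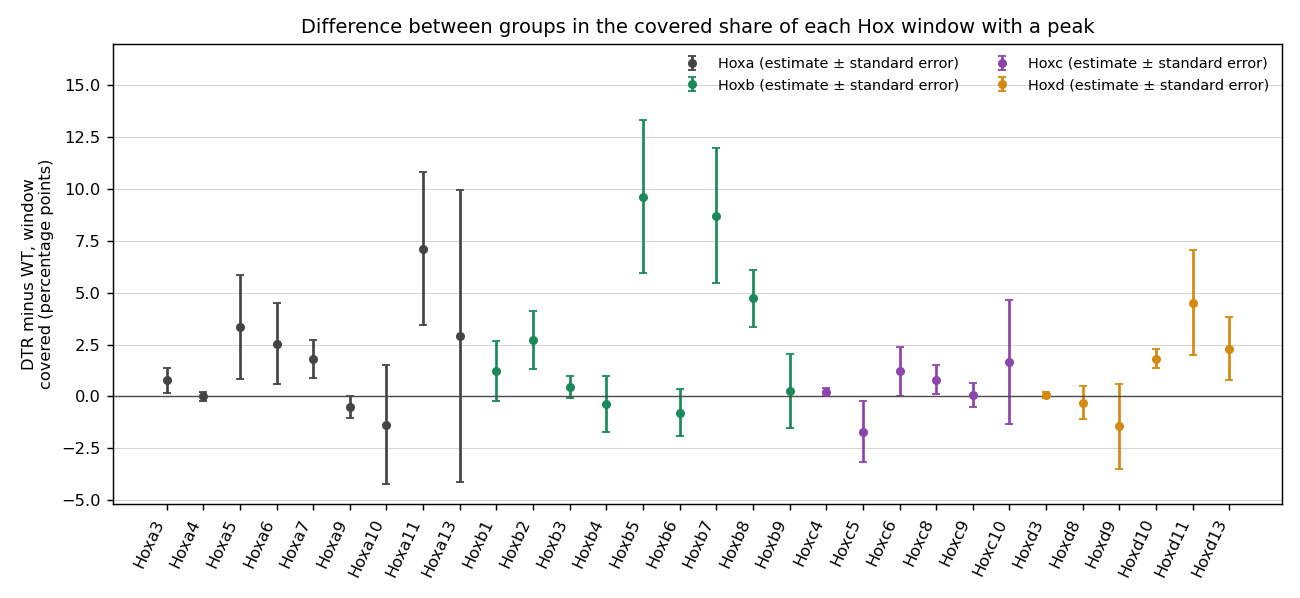
Difference in covered share, DTR minus WT in percentage points (y axis), estimated by limma with its standard error, for the reported Hox genes with a peak in at least 1 library (x axis). Most points lie above 0, and none passes the adjusted threshold.

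Most of the small differences pointed the same way. Of the 31 genes, 23 had a difference above 0, 7 below 0 and Hoxa4 none. Over all genes in the fit, 79.5% had a difference above 0. The median difference was 0.80 points over the Hox genes and 0.22 points over all genes. Points depend on the length and cover of a window, so these medians do not compare the size of change between gene sets. As a ratio of covered length, DTR to WT was 1.12 in the Hox windows and 1.08 in the whole lists. When each library was scaled to the same covered length, the medians became 0.42 points for Hox genes and -0.14 points for all genes, so the sign of the median over all genes changed with this scaling.

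Groups without overlap were found at 3 Hox genes, all higher in DTR: Hoxb7, Hoxb8 and Hoxd10. Over all genes with a peak, 17.5% had all DTR values above all WT values and 0.984% the reverse, while no Hox gene had the reverse. At 3 of 31, the Hox count was below that background. With the scaling to covered length the same 3 Hox genes were higher in DTR, Hoxa4 and Hoxc9 were higher in WT, and the shares over all genes turned to 4.44% and 19.5%. With 3 libraries against 3, the exact two-sided permutation p of a single gene cannot go below 0.1. Leaving out a library raised the count to 5 (without DTR1), 7 (without DTR2), 8 (without WT1) and 5 (without WT3), with 24.0%, 31.2%, 36.9% and 24.7% of all genes. Hoxb7, Hoxb8 and Hoxd10 were in each of these counts, but not under every other setting. With a 5 kb extension none of the 3 was among the 5 genes counted, which were Hoxd13, Hoxd12, Hoxa11, Hoxb5 and Hoxc8. With a q of at most 1e-05 the genes were Hoxd10 and Hoxb6, and with lists of equal length Hoxd10 alone. Over all genes with a peak, the shares under these 3 settings were 18.3%, 18.4% and 14.9%. With lists of equal length the difference of Hoxb7 turned to -4.95 points and that of Hoxb8 to -0.09 points.

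Hoxd10, a limb and motor neuron gene, had 619, 417 and 419 bp covered in DTR and 249, 249 and 261 bp in WT, a difference of 1.81 ± 0.46 percentage points (limma estimate and SE) with an adjusted p of 0.322. All 6 libraries shared a single peak, chr2:74690118-74690388, of 265, 267 and 271 bp in DTR and 249, 249 and 261 bp in WT. The remaining length in DTR came from 3 short regions that were each present in 1 or 2 DTR libraries and in no WT library. The extra cover was therefore not at the same place in the 3 DTR libraries. With the gene body alone as the window, limma called Hoxd10 higher, with an adjusted p of 0.00583, and without DTR1 the adjusted p was 0.0310. The difference fell to 0.499 points with a q of at most 1e-05 and also with lists of equal length, and to 0.114 points with peaks of at least 200 bp. The adjusted p from limma was then 0.608, 0.682 and 0.562, and with the replicate block it was 0.45.

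Hoxb7 and Hoxb8 are neighbours in the Hoxb cluster, and their windows overlap at 2 regions. Hoxb7 had 1552, 1343 and 1470 bp in DTR and 1256, 447 and 946 bp in WT, and Hoxb8 had 1749, 1601 and 1554 bp in DTR and 1475, 1197 and 1109 bp in WT. The differences were 8.72 ± 3.24 and 4.72 ± 1.39 points, with adjusted p from limma of 0.466 and 0.384. The Hoxb8 window held all of the region chr11:96284199-96284901, with 669, 703 and 671 bp in DTR and 649, 634 and 508 bp in WT. The Hoxb7 window held only a part of it, with 264, 298 and 270 bp in DTR and 254, 266 and 103 bp in WT, and there the groups overlapped. The Hoxb7 window held all of the region chr11:96285898-96287185, with 1288, 1045 and 1200 bp in DTR and 1002, 181 and 843 bp in WT. WT2 was lowest in that region and WT1 came closest to the DTR libraries. Of it, the Hoxb8 window held 428, 369 and 374 bp in DTR and 181, 0 and 27 bp in WT.

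Hoxb5 showed a difference in how peaks were joined. In DTR and in WT1 its window held a single peak of 1042, 1092, 1194 and 1043 bp. In WT2 and WT3 it held 2 shorter peaks, 445 and 509 bp together, within the same region chr11:96302979-96304227. The highest fold of these short peaks was 10.2 in WT2 and 10.1 in WT3, against 6.15, 5.75, 4.97 and 5.87 for the long peaks of DTR1, DTR2, DTR3 and WT1. When gaps of up to 1 kb between peaks of a list were bridged, a setting chosen after seeing the data, WT2 and WT3 came to 981 and 1061 bp. The difference then fell from 9.62 ± 3.69 to 1.76 ± 0.998 points, with adjusted p from limma of 0.473 and 0.584. Without WT1, limma called Hoxb5 higher as called by the authors, at 13.7 ± 1.17 points with an adjusted p of 0.0488.

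**Figure D4:**
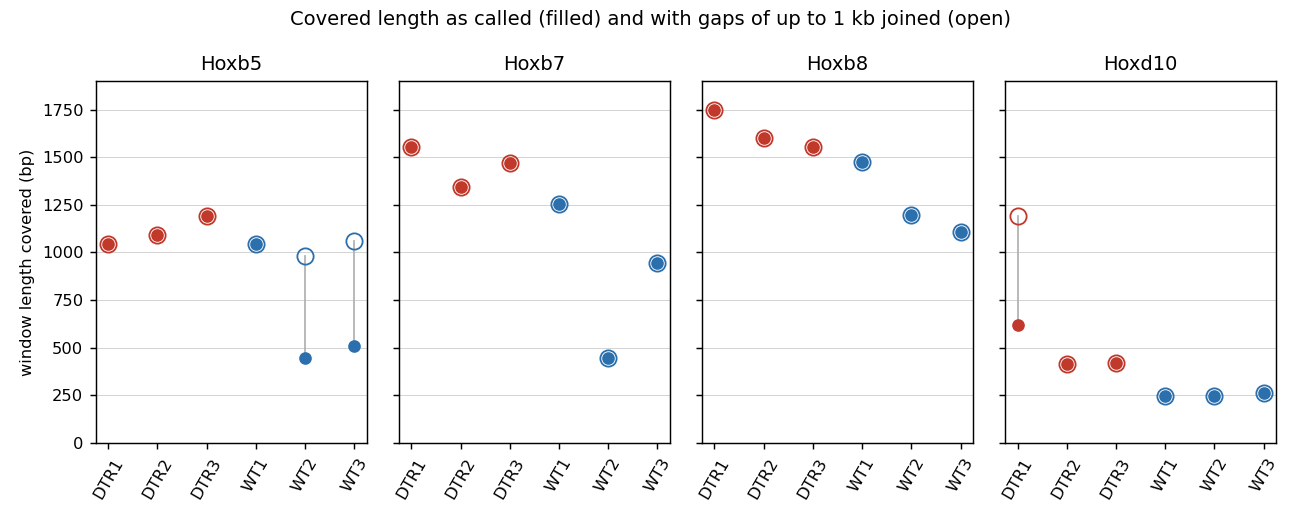
Window length covered by peaks in bp (y axis) in each library (x axis) for Hoxb5, Hoxb7, Hoxb8 and Hoxd10, red for DTR and blue for WT, as called (filled) and with gaps of up to 1 kb bridged (open). At Hoxb5 bridging lifts WT2 and WT3 to 981 and 1061 bp, and at Hoxd10 it lifts DTR1 alone, to 1194 bp.

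No Hox gene had a peak in every library of a group and none in the other. Over all protein-coding genes, 0.0959% had such a peak in DTR alone and 0.0228% in WT alone. Among the 49 merged regions of the windows, 37 (75.5%) were in all libraries, against 74.1% of all 92712 regions, and 0 were in all libraries of a single group. The widths of regions, compared after seeing the data, did not overlap at 4 of the 37 Hox regions, all wider in DTR, of which 3 were in Hoxb and 1 in Hoxd. Over all regions found in every library, 13% were wider in DTR and 1.86% wider in WT without overlap.

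Summed over the joined windows of all 39 genes (339 kb, each base counted once), peaks covered 27.9, 25.1 and 28.8 kb in DTR and 27.4, 23.2 and 22.7 kb in WT. The means were 27.3 ± 1.89 kb and 24.4 ± 2.56 kb (SD, n = 3 each), and WT1 lay inside the DTR range. The ratio of the means was 1.12, beside 1.08 for the whole lists. Per Mb covered in the library, the Hox windows held 0.551 ± 0.0263 kb in DTR and 0.530 ± 0.0428 kb in WT, a difference smaller than the spread within either group. The windows held 46, 41 and 42 peaks in DTR and 41, 41 and 40 in WT, and 30, 28 and 28 genes with a peak in DTR against 28 in each WT library.

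**Figure D5:**
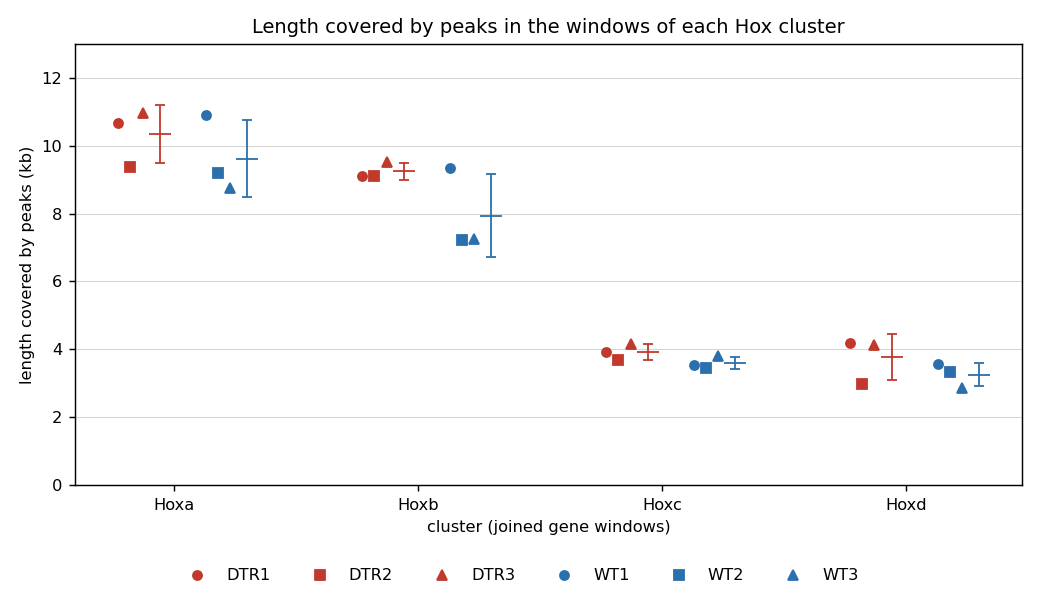
Length covered by peaks in kb (y axis) in the joined windows of each cluster (x axis), with 1 symbol per library and the mean ± SD of the 3 libraries of a group beside them. In Hoxb the DTR libraries lie between 9.10 and 9.52 kb, WT1 at 9.35 kb and the other WT libraries at 7.21 and 7.26 kb.

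Among the clusters, Hoxb had the widest gap between means in kb, with 9.10, 9.10 and 9.52 kb in DTR and 9.35, 7.21 and 7.26 kb in WT. The low WT mean of 7.94 ± 1.22 kb rested on WT2 and WT3. Hoxa held 10.7, 9.39 and 10.98 kb in DTR and 10.9, 9.21 and 8.74 kb in WT. Hoxc held 3.91, 3.68 and 4.14 kb against 3.55, 3.44 and 3.81 kb, and Hoxd 4.18, 2.98 and 4.13 kb against 3.55, 3.33 and 2.87 kb. Groups overlapped in all 4 clusters. Hoxd had more peaks in each DTR library (9, 8 and 9) than in each WT library (7, 7 and 7), which were the short peaks at Hoxd10 and Hoxd11.

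The summed cover of 4 of the 6 marker lists was higher in DTR without overlap. The cover of the whole peak lists was too, at 48.1 to 50.1 Mb in DTR and 43.8 to 47.7 Mb in WT. The 12 monocyte markers summed to 239 to 246 percentage points in DTR and 205 to 236 in WT, and the 8 stem and progenitor markers to 46.0 to 49.0 and 40.2 to 43.2. The 8 neutrophil markers summed to 73.1 to 80.7 in DTR and 65.2 to 67.4 in WT, and the 7 megakaryocyte and platelet markers to 81.5 to 82.7 and 78.8 to 80.1. Gene by gene, 2 of 12 monocyte and 1 of 8 stem and progenitor markers were higher in DTR without overlap. So were 2 of 8 neutrophil and 1 of 7 megakaryocyte and platelet markers, against 17.5% of all genes with a peak. None of the markers was called by limma. B cell markers (28.4 to 44.2 against 36.7 to 45.7) and T and NK cell markers (32.5 to 35.4 against 32.9 to 36.1) overlapped, with both ends of the range lower in DTR. The lowest B cell sum was that of DTR2, where Cd79b was covered at 2.80%, against 17.9% and 18.3% in DTR1 and DTR3. The median differences over genes, DTR minus WT, were above 0 in both lists, at 0.097 points for B cells and 0.092 points for T and NK cells. The part of the makeup of the cells, of the length of the lists and of depth in the Hox values was not tested.

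Most listed genes that act with or on Hox genes had a peak in every library. Of 9 TALE cofactors, 7 had a peak in all libraries, Meis2 in 5 and Pknox2 in none. None of the 8 in the fit was called. Pbx2 was higher in DTR without overlap, by 2.25 ± 0.86 points, with an adjusted p from limma of 0.473. All 13 genes of the MLL side and all 24 of the Polycomb side had a peak in every library, and none was called. Without overlap, 2 TALE cofactors, 2 genes of the MLL side and 5 of the Polycomb side were higher in DTR, and 0 of each in WT. Over all genes with a peak, 17.5% were higher in DTR and 0.984% in WT. The largest difference of the 5 was at Kdm6a, a demethylase that counters Polycomb. It was covered at 4.71% in DTR and 3.25% in WT on average (adjusted p from limma 0.429). Of the Cdx genes, which switch on Hox genes in the embryo, Cdx1 had a peak in all libraries and Cdx2 and Cdx4 in none. Of 13 neighbouring genes outside the clusters, 12 had a peak in all libraries, and Evx1, the homeobox gene next to Hoxa13, had none.

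Other developmental homeobox genes were counted in the same way. Of 50 listed genes such as Dlx, Irx and Pax members, 23 had a peak in all libraries, 5 in some and 22 in none, against 27, 4 and 8 of the 39 Hox genes. The median covered share, genes without a peak included, was 0.62% for them, 9.40% for the Hox genes and 3.77% over all protein-coding genes. The share depends on window length, so these medians do not rank the gene sets by openness. In DTR1, 593 bp at Hoxa4 made 14.7% of its window, and 2010 bp at Kmt2a made 2.51%. A peak in all libraries was found at 69.2% of Hox genes and 68.7% of all protein-coding genes. These counts and shares are descriptions and were not tested. Dlx4 was the only called gene among the 28 of the list in the fit, beside 0.165% of all genes called higher and 0.0317% called lower. It was covered at 19.2%, 19.0% and 18.9% in DTR and 13.6%, 13.1% and 14.2% in WT, 5.37 ± 0.34 points higher with an adjusted p from limma of 0.0129. Over all genes with a peak, 17.5% were higher in DTR without overlap and 0.984% higher in WT. Of the 28 genes of this list, 5 were higher in DTR without overlap and 2 in WT. Lhx9 was among the former and was not called, with an adjusted p from limma of 0.392. The latter, named after their values were seen, were En2, at -2.90 ± 0.86 points (adjusted p from limma 0.384), and Dlx3, at -1.72 points (adjusted p from limma 0.549).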

How the data were processed

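Each of the 6 ATAC-seq libraries (3 DTR, 3 WT, grouped by sample title) has a list of broad peaks called by the authors on that library alone. The tools were fastp, Bowtie, Bowtie2 (2.4.4) and MACS2, per the submitters' processing notes. For their settings, any Tn5 offset and the genome build, nothing is given in the sources used here. The series title speaks of histone modifications, but titles and protocols describe ATAC-seq. The deposited lists give a score, a fold enrichment (ratio) and −log10 of p and q per peak, all the authors' values, which served to rank and filter peaks inside each list. The lists were set against RefSeq gene and promoter tables (GRCm38.p6): 41.1% of 32851 promoters had a peak in all libraries, against 4.12% and 4.25% when moved by 5 and 20 kb. The lists carry no read counts, so the number of libraries limits precision.

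The percent of each window covered was fitted over all protein-coding genes with limma 3.58.1 (R 4.3.3; lmFit, eBayes with trend, no covariate) after a test on simulated data. Other counts were made in Python 3.11.15. Values were printed for the 3 members per cluster with the highest mean among those with a peak in all libraries, for members called or without overlap, for members with a peak in 1 to 5 libraries, and for up to 3 genes per other list called or without overlap. Hoxa4, Hoxa9, Hoxb5, Hoxd3, the printed RNA genes and Meis2 were added after values were seen. Members, lists and tests were chosen with earlier results of these data known. Alternatives changed the window, the peaks used, the scaling, the overlap, the filter and the libraries. Replicate numbers did not pair the libraries. Some genes that these rules name are counted in the totals but are not reported here. Prac1 matched no gene of the table.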

Additional observations from a re-analysis of the deposited data

How the results depend on the processing

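Of 119 alternative values, 103 gave the same verdict as the reported value (same direction and call, or a shift of less than 1 SD or 1.5 times). Many of the 103 were counts of 0 that stayed at 0, such as Hox genes called lower or with a peak in a single group. The total therefore says little about the values that could move. limma called 1 Hox gene higher with no window extension (Hoxd10), and from 0 to 1 when a library was left out (Hoxd10 without DTR1, Hoxb5 without WT1). Hox genes higher in DTR without overlap, 3 as reported, numbered 5 with a 5 kb extension and 1 with lists cut to equal length, and from 3 to 8 when a library was left out. The shares over all genes with a peak were 18.3%, 14.9% and from 20.4% to 36.9%, beside 17.5% as reported. Those higher in WT, 0 as reported, numbered 2 with scaling to covered length and from 0 to 1 when a library was left out. The shares over all genes were then 19.5% and from 1.69% to 4.03%, beside 0.984% as reported. With lists of equal length, the difference in covered length turned from 2.85 to -0.0453 kb and that in peaks from 2.33 to -3. The cut removes the weakest peaks of the longer lists, most of them DTR lists. The difference in peaks was 4.67 with a 5 kb extension, and that in genes with a peak, 0.667 as reported, was 1.67 with no extension and 2.33 with a q of at most 1e-05. The cause was not tested for any of the values that moved or turned.

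Over all genes, limma called 26 higher and 5 lower. The counts were 70 and 5 with a q of at most 1e-05, 40 and 6 with bridged gaps, 23 and 10 with lists of equal length, 28 and 2 with peaks of at least 200 bp, 23 and 3 with a 5 kb extension and 26 and 3 on log2 of covered bp. They were 11 and 5 with scaling to covered length, and from 11 to 73 higher and from 3 to 9 lower when a library was left out. Same-numbered libraries of the 2 groups did not deviate together (correlations 0.0178, 0.188 and -0.0353 over genes), so the numbers were not taken as pairs. A fit with the replicate block called 0 genes higher and 0 lower, and 0 Hox genes. Depth is unknown and limits how far an absent peak shows closed chromatin.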

Other observations

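Outside the gene windows, the 4 cluster spans and the 50 kb on either side held 34 further regions, looked at after the windows had been measured. Of these, 17 were in all libraries, 0 in the DTR libraries alone and 1 in the WT libraries alone. Of all 92712 regions, 761 were in the DTR libraries alone and 92 in the WT libraries alone. The WT-only region at the clusters, chr2:74642423-74642742, lies beyond the Hoxd13 end of the Hoxd cluster. It had 256, 158 and 295 bp in WT1, WT2 and WT3 and authors' folds of 2.84, 2.80 and 2.88. It was singled out after its values were seen, and its folds stood between the percentiles 8.4 and 10.5 of the lists.

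The region between the Hoxd13 and Hoxd12 windows, chr2:74672746-74673775, had 1014, 1011 and 513 bp of peak in DTR and 479, 434 and 456 bp in WT. The region between the Hoxc9 and Hoxc8 windows, chr15:102987350-102987875, had 520, 520 and 508 bp in DTR and 451, 296 and 235 bp in WT. These are 2 of the 5 regions outside the windows that were in all libraries and wider in DTR without overlap. Over all regions in all libraries, 13% were wider in DTR and 1.86% wider in WT without overlap. At the clusters, none was wider in WT without overlap among the 17. The strongest region outside the windows, chr6:52303470-52303951, beyond the Hoxa13 end, had a mean fold of 9.25 and from 347 to 482 bp in each library.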
